A study of Sus scrofa with 6 samples.

Results

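The miR-15, miR-16, miR-195 and miR-497 group consists of 5 mature pig miRNAs, ssc-miR-15a, ssc-miR-15b, ssc-miR-16, ssc-miR-195 and ssc-miR-497 (written below with no species prefix), chosen by name out of 326 listed mature miRNAs. All 5 were listed in every library. They were measured by small RNA sequencing of oocytes stripped of their cumulus cells. Oocytes of large follicles (LO) came from follicles of 3 to 6 mm, drawn with a 20-gauge needle on a 10 mL syringe, and oocytes of small follicles (SO) from follicles under 2 mm, drawn with a 23-gauge needle on a 5 mL syringe. All donors were gilts before puberty from a local abattoir, no treatment was applied, and each group had 3 libraries that the series calls biological replicates. Follicle size, needle and syringe differed together and cannot be told apart. How many oocytes and animals stand behind a library is not stated in the labels. No miRNA that defines the oocyte was fixed as a marker, so the cell type was checked only through markers of other cells.

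miRNAs are short RNAs that guide Argonaute proteins to messenger RNAs, mostly by pairing of the seed, bases 2 to 8 from the 5′ end. In human cells miR-15a and miR-16 repress BCL2 and cyclins and are lost in chronic lymphocytic leukaemia, and the family as a whole restrains entry into the cell cycle. In mouse heart miR-195 increases as muscle cells stop dividing after birth, and in mouse muscle miR-195 and miR-497 act in keeping stem cells quiescent. In mouse oocytes, which are held in meiotic arrest while they grow, miRNAs as a class have little repressive activity.

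The mature sequences are shown because they carry both what the 5 members share and what tells their reads apart. They are as deposited, with T for U, 5′ to 3′, and capitals mark bases 2 to 8.
miR-15a: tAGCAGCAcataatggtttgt
miR-15b: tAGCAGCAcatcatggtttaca
miR-16: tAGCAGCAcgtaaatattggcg
miR-195: tAGCAGCAcagaaatattggc
miR-497: cAGCAGCAcactgtggtttgt
All 5 had the same bases 2 to 8, and miR-497 alone differed at base 1. Outside the seed they formed pairs that did not follow the gene clusters. miR-16 and miR-195 were identical in 19 of 21 bases, with the substitutions G10A and T11G counted from the 5′ end (the miR-16 base first). miR-15a and miR-15b were identical in 18 of 21 bases, with A12C, G20A and T21C (the miR-15a base first). miR-497 was nearer to miR-15a, at 17 of 21 bases, than to miR-195, at 12 of 21. Over the first 20 bases no listed name lay within 1 base of any member. The lengths were 21 or 22 bases, so levels of the members can be set side by side without a length correction.

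Another 4 listed miRNAs with the hexamer of bases 2 to 7 at their 5′ end are shown because they can pair with overlapping sites.
miR-424-5p: cAGCAGCAattcatgttttgaa
miR-503: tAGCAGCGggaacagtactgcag
miR-103: aGCAGCATtgtacagggctatga
miR-107: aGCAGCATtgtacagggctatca
miR-424-5p had the full seed of the members. miR-503 shared bases 2 to 7 and differed at base 8. In miR-103 and miR-107 the hexamer began at base 1, so that their own seed was offset by 1 base. These 2 were fixed by name, and other listed names were searched for the hexamer at bases 2 to 7 only.

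In RefSeq's gene table for Sscrofa11.1 the 5 members belonged to 3 gene pairs. miR-16 had 2 genes, one next to the gene of miR-15a and one next to the gene of miR-15b, and both give the same mature sequence. The genes of miR-195 and miR-497 were next to each other. Reads of miR-16 can therefore come from either of 2 clusters and cannot be assigned to one.

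Values are in RPM, reads per 1000000 of a library total that the authors set. Where the values of a group's 3 libraries are given in a row, they are in the order of replicates 1 to 3. The reads behind the RPM values came back whole, and the listed miRNAs held 7755 to 42541 reads in LO libraries and 44964 to 55230 in SO libraries. LO replicate 2 was the shallowest, and its listed miRNAs took 1.68% of the library total, against 2.33% to 3.03% in the other 5 libraries. The worth of 1 read was 0.702 to 2.17 RPM in LO libraries, against 0.457 to 0.522 RPM in SO libraries. A count of 0, with 3 reads as its limit, would allow up to 6.50 RPM in LO replicate 2, but each member had at least 1 read in every library. All intervals on shares are 95% exact Clopper-Pearson intervals, which cover counting error only.

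miR-16 was by far the highest member and ranked second among all listed miRNAs in each of the 6 libraries. It stood at 4029, 2204 and 3685 RPM in the LO libraries, against 3743, 2790.1 and 2666 RPM in the SO libraries. The lowest of the 6 values was LO replicate 2 and the highest LO replicate 1, so the LO range enclosed the SO range. As a share of listed miRNA reads miR-16 was far steadier. It took 13.3% (12.8 to 13.8), 13.1% (12.4 to 13.9) and 12.3% (12.0 to 12.7) in the LO libraries, and 13.0% (12.7 to 13.3), 11.9% (11.6 to 12.2) and 11.5% (11.2 to 11.7) in the SO libraries. The highest share was 1.16 times the lowest. The coefficient of variation over the 6 libraries was 5.87% for the share of miR-16 and 22.9% for its RPM. That of the share was the second lowest of the 104 miRNAs with enough reads to test, after miR-125b at 5.51%, beside a median of 36.9%. Abundant miRNAs have less counting error, and among the 10 most abundant the coefficient ran up to 61.5%. The shares of miR-16 still varied more than reads drawn at random would, with a chi-square of 5.81 per degree of freedom among LO and 30.6 among SO libraries, where counting error alone gives about 1.

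**Figure D1:**
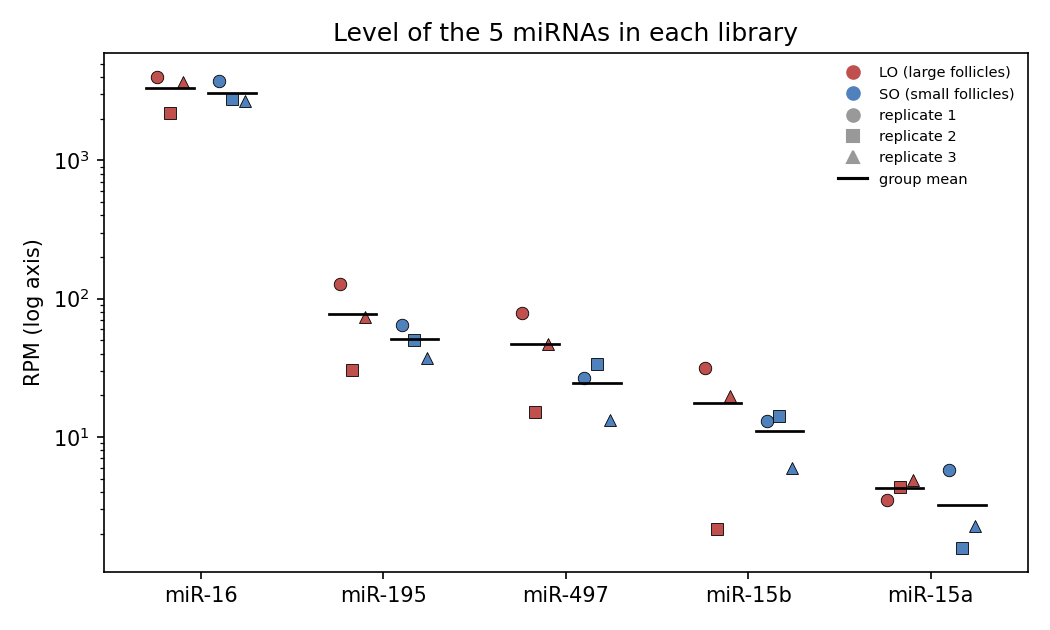
Level of each member in each library in RPM on a log axis, with LO left of SO, the marker shape giving the replicate and the bar the group mean. miR-16 lies between 2204 and 4029 RPM in all 6 libraries, miR-195 and miR-497 between 13.3 and 127 RPM, and LO replicate 2 is the lowest LO library for every member except miR-15a.

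miR-195, the close sequence relative of miR-16, was the next highest. It stood at 127, 30.3 and 73.7 RPM in the LO libraries, against 64.7, 50.5 and 37.5 RPM in the SO libraries. LO replicates 1 and 3 were above all SO libraries and LO replicate 2 was below them, so the groups overlapped. There were 31.8 to 72.6 reads of miR-16 for 1 read of miR-195. Put the other way, miR-195 had 3.15, 1.38 and 2.00 reads per 100 of miR-16 in the LO libraries, and 1.73, 1.81 and 1.41 in the SO libraries. Whether any miR-195 reads are misread miR-16, which differs at 2 adjacent bases, was not tested.

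miR-497, encoded beside miR-195, stood at 78.1, 15.2 and 47.0 RPM in the LO libraries, against 26.6, 33.9 and 13.3 RPM in the SO libraries. Again LO replicates 1 and 3 were above every SO library, while LO replicate 2 was between SO replicates 3 and 1. miR-497 was below miR-195 in 6 of 6 libraries, by 1.49 to 2.83 times. The RPM ranges of the pair overlapped in LO but not in SO.

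miR-15b, encoded beside a miR-16 gene, stood at 31.3, 2.17 and 19.7 RPM in the LO libraries, against 13.1, 14.1 and 5.94 RPM in the SO libraries. The value in LO replicate 2 is a single read, and LO replicates 1 and 3 were above all SO libraries. Its share of listed reads differed 7.99 times between the highest library, LO replicate 1, and the lowest, LO replicate 2, the widest span of the 5 members. miR-15b was below miR-497 in 6 of 6 libraries.

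miR-15a, encoded beside the other miR-16 gene, was the lowest member. It had 2, 2 and 7 reads in the LO libraries, which is 3.47, 4.33 and 4.92 RPM, against 11, 3 and 5 reads in the SO libraries, which is 5.74, 1.56 and 2.29 RPM. The LO values lay within the SO range. Summed over libraries it had 11 of 67760 listed reads in LO (0.0162%) and 19 of 151130 in SO (0.0126%). The ratio of these shares was 1.29, with an exact interval of 0.555 to 2.86. Its reads over all 6 libraries varied with a chi-square of 0.973 per degree of freedom, so differences between libraries were not detectable beyond counting error at this depth. The same measure was 4.17 for miR-15b, 7.96 for miR-195 and 11.1 for miR-497. miR-15b was above miR-15a in 5 of 6 libraries, LO replicate 2 being the exception, with 1 read against 2.

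Members encoded side by side had unequal levels. For 1 read of miR-15a there were 1160.0, 509 and 749.7 reads of miR-16 in the LO libraries, and 652, 1785 and 1167 in the SO libraries. For 1 read of miR-15b there were 129, 1017 and 187 reads of miR-16 in LO, and 287, 198 and 449 in SO. miR-195 and miR-497 were much nearer to each other, with 1.62, 2.0 and 1.57 reads of miR-195 for 1 of miR-497 in the LO libraries, and 2.43, 1.49 and 2.83 in the SO libraries. Read counts also reflect how well each sequence is captured in library making, which was not tested here.

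A ratio of reads within a library does not depend on how that library is scaled, so 4 such ratios were compared between LO and SO on a log2 scale. To each side of a ratio 0.5 read was added, which makes ratios of low counts depend on depth. The log2 ratio of miR-497 to miR-195 had a mean of -0.76 ± 0.17 for LO against -1.11 ± 0.48 for SO, a difference of 0.35 (SD, 3 libraries each; two-sided exact permutation p = 0.4, adjusted over 4 ratios 0.533). That of miR-15b to miR-16 had a mean of -7.97 ± 1.28 for LO against -8.17 ± 0.58 for SO, a difference of 0.20 (exact p = 0.9, adjusted 0.9). Without LO replicate 1 this difference was -0.30. That of miR-15a to miR-16 had a mean of -9.33 ± 0.60 for LO against -9.97 ± 0.65 for SO, a difference of 0.65 (exact p = 0.3, adjusted 0.533). The sum of miR-195 and miR-497 against the sum of miR-15a, miR-15b and miR-16 had a mean of -4.94 ± 0.63 for LO against -5.37 ± 0.33 for SO, a difference of 0.44 (exact p = 0.4, adjusted 0.533). With no read added the difference was 0.018 for miR-15b to miR-16 and 0.54 for miR-15a to miR-16. It was then 0.34 for miR-497 to miR-195 and 0.43 for the sums. With 0.5 read added the group ranges overlapped in all 4, and the smallest p that 3 libraries against 3 can give is 0.1.

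Together the 5 members took 14.1%, 13.4% and 12.8% of listed miRNA reads in the LO libraries, and 13.4%, 12.3% and 11.7% in the SO libraries. The means were 13.4% ± 0.626 for LO against 12.5% ± 0.836 for SO (SD, n = 3 each). miR-16 alone made up 96.1% ± 1.66 of this sum in LO and 97.2% ± 0.650 in SO. The sum of miR-195 and miR-497 was 0.676%, 0.271% and 0.404% of listed reads in the LO libraries, and 0.317%, 0.360% and 0.218% in the SO libraries. The level of the shared seed was therefore almost wholly that of miR-16.

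The comparison of LO with SO asked whether the group's levels differ with the size of the follicle the oocyte came from. Of the 5 members, 4 had enough reads to enter limma on log2(RPM + 1), fitted over all 104 tested miRNAs, and miR-15a did not. None of the 4 passed a Benjamini-Hochberg false discovery rate (FDR) of 0.05, beside 0 of 104 (0%) overall. None had an unadjusted limma p under 0.05, beside 4 of 104 (3.85%). None of the 4 was called by edgeR with TMM scaling on the recovered reads either, beside 2 of 104 (1.92%), nor by DESeq2 or limma-voom. None of the 4 had RPM ranges apart between groups, beside 3.85% of the tested miRNAs, and none had shares of listed reads apart, beside 15.4%.

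miR-497 had the largest fold change of the 4, with a mean of 46.8 ± 31.5 RPM for LO against 24.6 ± 10.5 RPM for SO (SD, n = 3 each). Its fold change, LO over SO on the log2(RPM + 1) scale, was 1.65 with a 95% interval of 0.734 to 3.70, a log2 fold change of 0.72 (SE 0.59, limma FDR 0.780). miR-195 had a mean of 76.9 ± 48.3 RPM for LO against 50.9 ± 13.6 RPM for SO, with a log2 fold change of 0.40 (SE 0.55, limma FDR 0.780). miR-15b had a mean of 17.7 ± 14.6 RPM for LO against 11.0 ± 4.43 RPM for SO, with a log2 fold change of 0.17 (SE 0.69, limma FDR 0.936). miR-16 had a mean of 3306 ± 969.9 RPM for LO against 3066 ± 589 RPM for SO. The log2 fold change of miR-16 was 0.078 (SE 0.34, limma FDR 0.936), a fold of 1.06 with a 95% interval of 0.665 to 1.67. These SEs follow the trend of spread with abundance over all tested miRNAs, and the spread of a miRNA's own replicates had no separate weight in them. The 95% intervals of miR-16, miR-195 and miR-15b leave room for a change of 1.5-fold in either direction, and that of miR-497 for such a change upward.

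All 4 tested members had a higher mean log2 level in LO on the deposited scaling (with TMM on log2 CPM, miR-16 and miR-15b were lower), but so had 72 of the 104 tested miRNAs (69.2%). The median log2 fold change of the 4 was 0.29, beside 0.29 for all tested miRNAs. In edgeR the median of all tested miRNAs was 0.36 with scaling on library size only and 0.10 with TMM. In the TMM fit miR-497 was at 0.54, miR-15b at 0.33, miR-195 at 0.21 and miR-16 at -0.16 (edgeR FDR 0.457 to 0.791), so the sign for miR-16 depended on the scaling. miR-497 was above 0 in 26 of 26 alternative settings, which reuse the same libraries, with log2 fold changes of 0.22 to 1.36. Of the relatives, miR-107 was also above 0 in 26 of 26, and miR-503 was below 0 in 26 of 26. The only call of a member was by limma without LO replicate 2, the shallow library. There miR-497 had a log2 fold change of 1.36 (FDR 0.0361), 18 of the 104 miRNAs (17.3%) were called and the median of all was 0.62. With edgeR and TMM and without the same library miR-497 was at 0.68 (FDR 0.283) and the median of all at -0.03. Without LO replicate 1 the limma values were 0.22 for miR-497, -0.068 for miR-195, -0.49 for miR-15b and -0.089 for miR-16. The limma values of miR-15b and miR-16 were also below 0 without LO replicate 3, at -0.17 and -0.025, and without SO replicate 3, at -0.18 and -0.015.

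**Figure D2:**
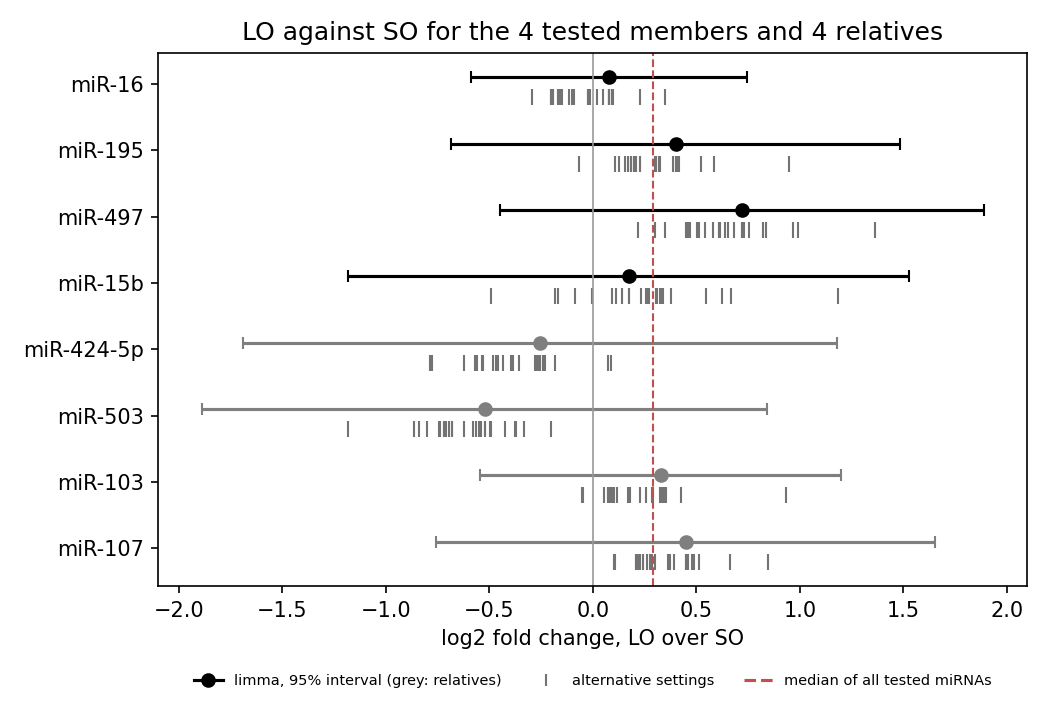
Log2 fold change of LO over SO for the 4 tested members (black) and 4 relatives (grey), with limma's 95% interval, the values under each alternative setting as ticks and the median of all tested miRNAs, 0.29, as a dashed line. Every interval crosses 0, miR-497 has all its ticks above 0, and miR-16 has ticks on both sides.

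On the log2(RPM + 1) scale the LO libraries differed among themselves by more than the group means did, for each member but miR-15a. With each member's mean taken off, miR-195, miR-497 and miR-15b were all highest in LO replicate 1. miR-195 and miR-15b were lowest in LO replicate 2, and miR-497 was lowest in SO replicate 3. miR-16 had the same highest and lowest library as miR-195 over a narrower range. miR-15a did not follow the others. Set beside each other as root mean square differences of the centred profiles, miR-195 and miR-497 were the most alike pair of members (0.32), and miR-15a and miR-15b the least alike (1.19). The profile of miR-15b was nearer to miR-497 (0.46) than to miR-16 (0.82), with which it shares a gene cluster. The profile of miR-15b includes LO replicate 2, where it had 1 read and stood at -1.93, against -0.50 for miR-16 and -0.93 for miR-497. Its distances to the other members therefore depend on that read. A value of miR-15a rests on 2 to 11 reads, so its profile is mostly counting error.

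**Figure D3:**
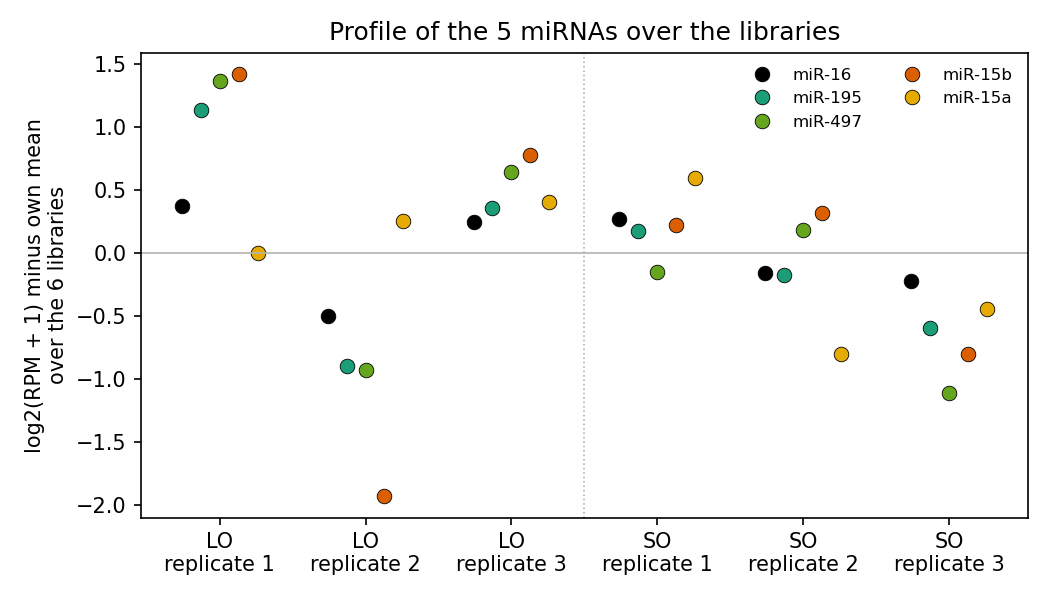
Log2(RPM + 1) of each member in each library, minus the member's own mean over the 6 libraries. miR-195, miR-497 and miR-15b are high in LO replicate 1 and low in LO replicate 2 and SO replicate 3, miR-16 shows the same over a narrower range, and miR-15a differs.

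As shares of listed reads, the summed granulosa and cumulus markers had the same highest and lowest library as some of the members. The share of 8 such names, all of them with reads, was 3.84%, 1.95% and 2.57% in the LO libraries, and 2.57%, 2.22% and 1.71% in the SO libraries. Most of these reads were of miR-21, miR-31 and miR-202-5p, with 239, 274 and 142 of 671 in LO replicate 1. Other names were low, and miR-221-3p did not follow the sum, at 5.21 RPM in LO replicate 1 and 5.48 RPM in SO replicate 3. Nor did miR-202-3p, at 19.1, 13.0 and 4.21 RPM in the LO libraries against 5.22, 6.25 and 7.31 RPM in the SO libraries. miR-195 took 0.418%, 0.181% and 0.247% of listed reads in the LO libraries, and 0.225%, 0.216% and 0.161% in the SO libraries. The highest library was LO replicate 1 and the lowest SO replicate 3 in both. The same holds for miR-497 at 0.258% and 0.0569% and for miR-16 at 13.3% and 11.5%. Yet in LO replicate 2 the marker sum was below SO replicates 1 and 2, while miR-16, at 13.1%, was above every SO library. For miR-16 the intervals of LO replicates 1 and 2 and SO replicate 1 overlapped. The shares of let-7g, miR-23b, miR-24-3p, miR-26a and miR-152 also had this highest and lowest library, so it is not particular to the members. Those of miR-34a and miR-148a-3p did not, and the pattern was not counted over all tested miRNAs. The part of granulosa or cumulus RNA in the levels of the members was not tested. The markers include miR-21, at 415, 102 and 284 RPM in the LO libraries against 309, 179 and 167 RPM in the SO libraries, and miR-202-5p, which oocytes may also hold. In libraries of pooled RNA, fewer cells of a type and less RNA per cell cannot be told apart.

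Theca, stroma and smooth muscle markers (8 of 9 names with reads, miR-214 at 0) took 0.252% to 0.438% of listed reads in LO and 0.194% to 0.349% in SO. Endothelial markers, both with reads, took 0.0306% to 0.0645% in LO and 0.0137% to 0.0489% in SO. Muscle markers (3 of 4 with reads, miR-133b at 0) took 0.0329% to 0.0774% in LO and 0.0157% to 0.0222% in SO. Leukocyte markers (4 of 5 names were listed, all with reads) took 0.0235% to 0.0630% in LO and 0.0157% to 0.203% in SO. The upper end is SO replicate 1 alone, with 112 reads, 80 of them miR-142-3p, and the other SO libraries had at most 0.0267%. miR-16 is abundant in red blood cells. The 3 erythroid markers miR-451, miR-144 and miR-486 took 0.0141% to 0.0258% in LO and 0.00667% to 0.0157% in SO, and miR-451 had at most 5 reads in any library. These shares rest on 2 to 8 reads a library, too few to order the libraries. In LO replicate 1, where the miR-16 share was highest, they took 0.0172%, which is 3 reads, all of them miR-486. The part of red blood cell RNA in the level of miR-16 was not tested.

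**Figure D4:**
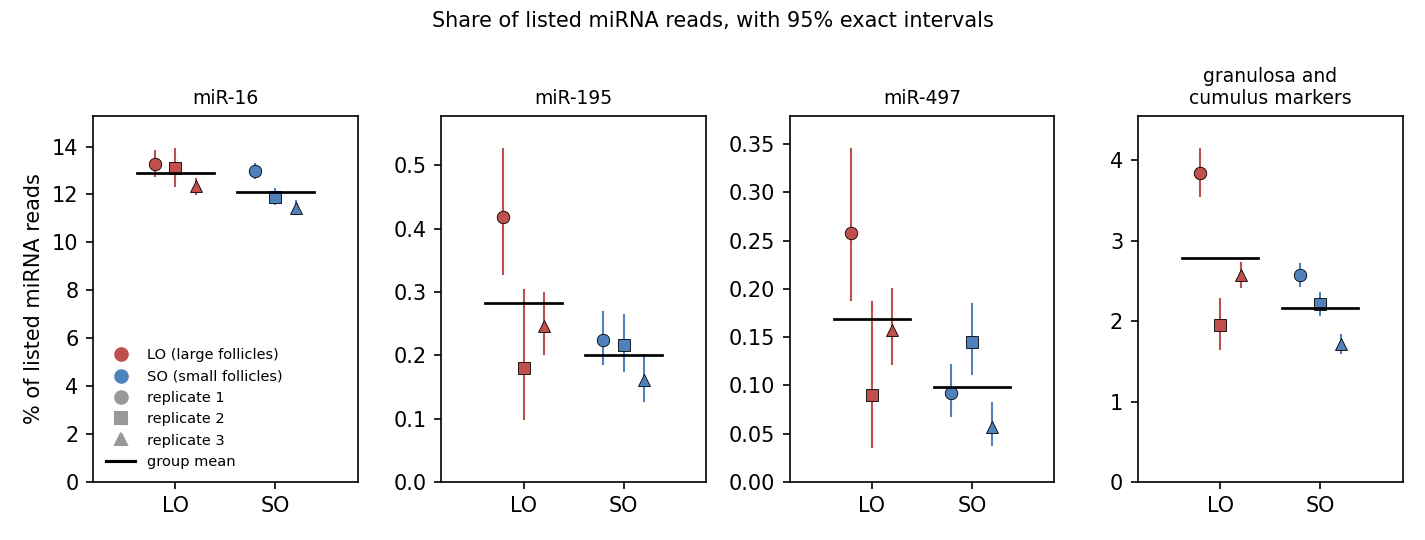
Share of listed miRNA reads of miR-16, miR-195, miR-497 and the summed granulosa and cumulus markers in each library, LO left of SO, with 95% exact intervals and the group mean as a bar. All 4 panels have LO replicate 1 as the highest library and SO replicate 3 as the lowest, and miR-16 has the narrowest relative range, 11.5% to 13.3%. The miR-16 intervals of LO replicates 1 and 2 and SO replicate 1 overlap.

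The relatives with the same hexamer were all far below miR-16, and with all 6 libraries limma called none of them. miR-424-5p, X-linked in human and with the members' full seed, stood at 8.68, 4.33 and 10.5 RPM in the LO libraries, against 15.1, 9.38 and 5.03 RPM in the SO libraries. miR-503, its cluster neighbour, stood at 6.95, 6.50 and 14.7 RPM in LO, against 13.6, 12.0 and 13.7 RPM in SO. Both overlapped between groups, and their levels were of the order of miR-15b, which was above miR-503 in 3 of 6 libraries and above miR-424-5p in 4 of 6. Their log2 fold changes were -0.25 (SE 0.73, limma FDR 0.898) and -0.52 (SE 0.69, limma FDR 0.780). With miR-424-5p and miR-503 the names that have the hexamer at bases 2 to 7 are 7, miR-103 and miR-107 not among them. These 7 took 13.5% ± 0.610 of listed reads in LO and 12.6% ± 0.845 in SO.

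miR-103, whose genes directly follow pantothenate kinase genes in RefSeq's order of gene starts, was the most abundant relative. It stood at 738, 189 and 598 RPM in the LO libraries, against 354, 361 and 329.5 RPM in the SO libraries, and miR-16 was 5.46 to 11.7 times higher in every library. For miR-103 the log2 fold change was 0.33 (SE 0.44, limma FDR 0.780). In limma without LO replicate 2 it was 0.93 (FDR 0.0346), and without LO replicate 1 it was -0.050. miR-107, which differs from miR-103 by G22C, had a mean of 29.0 ± 12.1 RPM for LO against 20.2 ± 6.46 RPM for SO (log2 fold change 0.45, limma FDR 0.780). Reads of these names may be shared between them.

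Among the 104 tested miRNAs, those with profiles most like each member were found by the same root mean square difference over the 6 libraries. For miR-195 they were let-7g (0.0434) and miR-23b (0.15), beside a median of 0.48. let-7g stood at 146, 36.8 and 84.3 RPM in the LO libraries and at 75.7, 55.2 and 43.4 RPM in the SO libraries. For miR-497 they were miR-24-3p (0.20) and miR-23b (0.21), beside a median of 0.62. For miR-16 they were let-7i (0.10) and miR-26a (0.11), and for miR-15b miR-148b-3p (0.24) and miR-34a (0.33). For miR-15a they were miR-199a-3p (0.24) and miR-499-5p (0.32), which rest on its few reads. All profiles share the scaling of their library, so this measure describes likeness over 6 points only.

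In the order of mean RPM over all 6 libraries, miR-16 lay between miR-205 at 9228 RPM and miR-148a-3p at 1542 RPM, with group means and SDs that did not meet those of either. miR-195 lay at 63.9 RPM between miR-152 (67.3) and miR-425-5p (63.7), and miR-497 at 35.7 RPM between miR-151-3p (36.9) and miR-143-3p (32.9). miR-15b lay at 14.4 RPM between miR-339-5p (14.8) and miR-9-2 (13.5). These neighbours did not differ beyond the spread between libraries. miR-15a, at 3.72 RPM, lay below the lowest tested miRNA, miR-146b at 4.70 RPM.

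Other miRNAs known to act on the cell cycle were set beside the group from a list of 19 names, 17 of them listed and 13 tested. By limma none passed an FDR of 0.05 in either direction. Of the 13, 12 had a higher mean log2 level in LO, with a median log2 fold change of 0.42, beside 0.29 for all tested miRNAs. They ran from -0.11 for miR-34c, a germ cell miRNA that targets cell cycle genes, to 0.98 for let-7c. In edgeR with TMM 9 of the 13 were higher in LO and the median was 0.18, beside 0.10 for all.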

How the data were processed

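The authors deposited 1 table per library with the name, the sequence and 1 value of 326 mature miRNAs. Per the file headers this is TPM. Yet 100% of the values above 0 were whole multiples of 1 step per library, within 0.01 read and whatever the length, so the deposited values were taken to be RPM and divided by the step to give whole reads. RNA came from the mirVana kit and libraries from the QIAseq kit, per the labels' protocols. Bowtie2 2.2.2, cutadapt, bcl2fastq and edgeR are named in the submitters' processing notes without their roles, as is the build Sscrofa10.2. The labels do not state that molecular identifiers were counted, so reads may not be independent molecules. RefSeq's table is of Sscrofa11.1 and served only for gene neighbours: all 5 members matched.

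Group differences were fitted by limma 3.58.1 (R 4.3.3, trend with abundance, no covariate) to log2(RPM + 1) of the 104 miRNAs that passed edgeR's filterByExpr on the reads (242 had at least 1 read). Ratios were tested by exact permutation in Python 3.11.15. edgeR 4.0.16 (quasi-likelihood, TMM) and DESeq2 1.42.0 were alternatives, beside other scalings, pseudocounts of 0.5 and 5 RPM, no filter, each library left out and the replicate number as a block. The leave-one-out fits with edgeR, and DESeq2 on the 242 miRNAs, were added after seeing the data. The limma and edgeR fits without a block were tested on simulated reads, with the same dispersion for every miRNA. The other fits and the permutation tests were not. The p-values measure only the spread between these libraries, which in the main limma fit was the trend over all tested miRNAs. Replicates of a group differed by a chi-square of 2.71 to 16.8 per degree of freedom, more than counting noise, and each was counted as 1 sample; repeat preparations of the same RNA could also differ this much.

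Members, lists and tests were chosen with earlier results of these data known. Named were the 5 members, the relatives with the same hexamer, the 2 most similar profiles and the nearest neighbours in level of each member, and the extremes of the cell cycle list. miR-125b and single markers were named after their values were seen.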

Additional observations from a re-analysis of the deposited data

How the results depend on the processing

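The sign of miR-16 was not settled. It was -0.16 with edgeR and TMM, -0.17 with limma-voom and with limma on TMM-scaled CPM, -0.19 with DESeq2 and with edgeR on DESeq2 size factors, -0.20 with DESeq2 on all 242 miRNAs and -0.025 with limma on listed reads other than miR-205. miR-15b was -0.088 with limma on TMM-scaled CPM and -0.0055 with listed reads other than miR-205. miR-195 and miR-497 kept their sign in all settings that used every library. Over the fits that left out 1 library, by limma and by edgeR, the log2 fold change ran from -0.29 to 0.35 for miR-16, -0.49 to 1.18 for miR-15b, -0.068 to 0.95 for miR-195, 0.22 to 1.36 for miR-497, -0.79 to 0.089 for miR-424-5p, -1.18 to -0.20 for miR-503, -0.050 to 0.93 for miR-103 and 0.10 to 0.85 for miR-107. The count of members called was 0 to 1, that of relatives 0 to 1 and that of all tested miRNAs 0 to 18. With all libraries, 2 miRNAs were called by each of limma-voom, DESeq2 on the tested miRNAs, and edgeR under TMM or DESeq2 size factors. The ratio of miR-15b to miR-16 ran from -0.30 to 0.92 when 1 library was left out, that of miR-15a to miR-16 from 0.32 to 0.99, that of miR-497 to miR-195 from 0.16 to 0.62 and that of the summed clusters from 0.12 to 0.75. With 5 reads added, the ratio of miR-15a to miR-16 differed by 1.02 and that of miR-15b to miR-16 by 0.75, against 0.54 and 0.018 with none added. Such an addition raises a ratio most where its upper count is low, as in LO replicate 2, with 2 reads of miR-15a and 1 of miR-15b. The cause of the other shifts was not tested.

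Whether the replicate numbers pair the libraries was not settled. The deviations from the group means correlated at -0.34, -0.22 and 0.08 for same-numbered pairs, and at 0.43 for LO replicate 1 with SO replicate 2. Deviations within a group of 3 libraries are tied to each other, so these correlations cannot show or exclude a pairing. With the number as a block limma called 0 miRNAs (smallest FDR 0.853) and edgeR 0 (smallest FDR 0.371), and miR-16 was at -0.17 in the edgeR block. Depth limits miR-15a and, in LO replicate 2, miR-15b.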
